A study of Mus musculus with 8 samples.

Results

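To describe how islets handle glycogen at the transcript level when Igf1r is lowered in β-cells, 10 genes of glycogen metabolism were followed among the 53012 Ensembl genes of the count table. They were Ppp1r3c, Ppp1r3b, Ppp1r3d, Ppp1r3e, Gys1, Pygb, Pygl, Pygm, Gbe1 and Ugp2, found by symbol, and all 10 were among the 15474 genes with enough counts to be tested. Ppp1r3c was chosen by its lower level in βIgf1rKD islets in these libraries, so its difference between the groups is given as a description with no test. The other 9 were chosen by their function in the same pathway, with earlier results of these data known. Bulk RNA-seq was done on islets of 4 βIgf1r and 4 βIgf1rKD mice, all aged 17 months, with 1 library for each mouse and both sexes in each group. Both groups were Igf1r flox/flox, with loxP sites around exon 3 of Igf1r. The βIgf1rKD mice were Ins1-CreERT2 +/-, a tamoxifen-inducible Cre that the study describes as driven by a rat insulin promoter in β-cells. They received 5 daily injections of tamoxifen at 0.075 mg/g, and islets were isolated 7 days after the last one. The βIgf1r mice were Ins1-CreERT2 -/- and received corn oil, so that the Cre, tamoxifen and the loss of Igf1r cannot be told apart in this comparison.

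Glycogen is a branched polymer of glucose. UDP-glucose made by UGP2 is added to the chain by glycogen synthase (GYS1 outside the liver), the branching enzyme GBE1 makes the branches, and glycogen phosphorylase releases glucose 1-phosphate from the chain ends. Protein phosphatase 1 activates the synthase and inactivates phosphorylase, and it is brought to the glycogen particle by targeting subunits of the PPP1R3 family, of which PPP1R3C is also called protein targeting to glycogen. β-cells normally hold little glycogen and can accumulate it under prolonged high glucose.

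The libraries held 21634080 to 31202154 counts in βIgf1r and 23826023 to 42391328 in βIgf1rKD mice. Levels are given in CPM, the count scaled to a fixed library size, with TMM factors of 0.8028 to 1.234 to balance the libraries. The log2 fold changes, throughout, are those of βIgf1rKD over βIgf1r islets. The islet label matched the hormone genes, with mean levels in βIgf1r islets of 115600 CPM for Ins2, 21080 CPM for Gcg and 2591 CPM for Sst. Ins1 is the other mouse insulin gene and the gene named in the Cre allele. It was at 41090 CPM in control and 21700 CPM in knockdown islets, without overlap, as were 1.25% of all genes tested in this direction. Its log2 fold change was -0.92 (edgeR's unadjusted p = 0.0204, adjusted p = 0.987), and its part in the results was not tested. Ins2 had a log2 fold change of -0.08, and its groups overlapped. Of the 9 β-cell markers, Ins1 and Ins2 among them, 5 were lower and 4 higher, with a median log2 fold change of -0.06. Igf1r itself averaged 53.6 CPM (SD 7.21, n = 4) in the controls and 50.7 CPM (SD 4.996, n = 4) after knockdown, which is -0.08 as a log2 fold change (standard error 0.11). Its count covers the whole gene and cannot show the loss of exon 3 alone. The study reports lower Igf1r mRNA by quantitative PCR and lower IGF1R protein by Western blot in βIgf1rKD islets, from mice of other age ranges. Of the other cells of the preparation, all 10 endothelial markers that could be tested lay lower on average in knockdown islets, 6 of them with an unadjusted p (edgeR) under 0.05, beside 1.89% of all genes tested, and the list summed to 450.4 to 559.7 CPM in βIgf1r and 397.2 to 441.0 CPM in βIgf1rKD mice. All 12 acinar markers were higher, 0 with an unadjusted p (edgeR) under 0.05. They summed to 15790 to 157200 CPM in βIgf1r and 34890 to 195000 CPM in βIgf1rKD mice. Macrophage markers were higher in 8 of 8, with 2 under that threshold, beside 2.23% of all genes tested. They summed to 260.5 to 395.4 CPM and 310.6 to 476.7 CPM. The 6 Schwann cell and glia and the 3 delta and PP cell markers tested were lower, 0 of them under that threshold. Of the 4 adipocyte markers, Adipoq, Plin1 and Cfd had mean levels of 0.000 to 0.0795 CPM, and Fabp4, which endothelial cells also express, had 9.871 and 8.589 CPM.

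Ppp1r3c (ENSMUSG00000067279) lies on chromosome 19 from 36731731 to 36736653, on the minus strand of GRCm38 in GENCODE M21, and has 1 transcript with 2 exons. Of the 10 genes, 8 were matched to a promoter in RefSeq's annotation of GRCm38.p6, and Ppp1r3b and Ppp1r3e were not matched. The promoter of Ppp1r3c is shown because it is the gene that the group was built around, with 201 bases upstream of the GENCODE transcript, chr19:36736654-36736854, minus strand. Capitals mark the letters ACGTG on either strand, the core of the element bound by hypoxia-inducible factors, which is also part of the E-box CACGTG.
Ppp1r3c: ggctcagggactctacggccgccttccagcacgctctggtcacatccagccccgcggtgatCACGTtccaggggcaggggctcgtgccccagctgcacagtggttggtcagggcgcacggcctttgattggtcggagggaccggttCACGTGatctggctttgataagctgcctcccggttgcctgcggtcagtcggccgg
Counted from the RefSeq start site, the matches began at positions -189, -104 and -103, the last pair being both strands of the same CACGTG. The search covered 250 bases before to 50 after each RefSeq start site, a longer window than the one printed. Among all 32851 such promoters, 19.6% held ACGTG on either strand. It was in 6 of the 9 promoters of the 8 matched genes, in the genes Ppp1r3c, Ppp1r3d, Pygb, Pygl, Pygm and Ugp2. The forkhead box O core GTAAACA, on either strand, was in 3.65% of all promoters and in 0 of the 9 promoters of the matched genes. Such matches describe the sequence alone, and binding was not measured.

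The level of Ppp1r3c was 14.4, 11.8, 13.0 and 10.8 CPM in the βIgf1r mice M148, M151, M152 and M153. In the βIgf1rKD mice M145, M146, M149 and M150 it was 8.52, 8.07, 6.14 and 7.62 CPM. The groups did not overlap, all knockdown mice being the lower, and M149 was the lowest. From means of 12.5 ± 1.59 CPM (SD, n = 4) to 7.59 ± 1.03 CPM (SD, n = 4), 60.8% of the control level was left, which corresponds to -0.72 on the log2 scale (standard error 0.13). These values rest on 141 to 542 counts per library. The groups did not overlap in the lower direction for 1.25% of the 15474 genes and in the higher direction for 0.944%, and since Ppp1r3c was chosen for this contrast nothing is read from its place among them. In bulk RNA, fewer cells that carry a transcript and less transcript per cell cannot be told apart. With the score of the endothelial markers as a covariate, the log2 fold change of Ppp1r3c was -0.73 (standard error 0.30), and with the acinar marker score it was -0.66. The endothelial score was 3e-04 to 1.22 in βIgf1r and -1.06 to -0.40 in βIgf1rKD mice, without overlap. Fits with this score, here and below, can therefore hardly separate it from the group. Which cells of the islet carry Ppp1r3c was not tested. Leaving out single mice gave -0.79 to -0.63, and the smallest difference was the one without M149.

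The other targeting subunits did not share 1 pattern. Ppp1r3b (ENSMUSG00000046794), whose product is the main targeting subunit of liver, was at 4.82, 5.38, 5.41 and 4.60 CPM in the βIgf1r mice and at 3.98, 3.36, 4.66 and 3.33 CPM in the βIgf1rKD mice in the same order. All βIgf1rKD mice but M149 lay below the βIgf1r range, and M149 was within it. The means of 5.05 ± 0.408 CPM (SD, n = 4) and 3.83 ± 0.628 CPM (SD, n = 4) differed by -0.40 on the log2 scale, with a 95% confidence interval from -0.75 to -0.06. By edgeR's quasi-likelihood test the unadjusted p was 0.0270 and the adjusted p over all genes 0.987. Of the 9 genes tested this was the 1 with an unadjusted p under 0.05, and it was lower, where 1.89% of all genes tested were lower and 2.23% higher at that threshold. After adjustment 0 of the 9 and 0 of the 15474 genes (0%) passed by edgeR, with 637 genes at an unadjusted p under 0.05, whereas DESeq2 called 8 genes and limma-voom 1 gene on the same counts. Without M149 the log2 fold change of Ppp1r3b was -0.51, but without M151, M152, M146 or M150 its unadjusted p rose above 0.05, to between 0.0599 and 0.0763 (edgeR, adjusted p of at least 0.669). Covariates also ended the unadjusted call, at log2 fold changes of -0.36 with Xist, -0.53 with the endothelial score and -0.43 with Xist plus the acinar score.

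Ppp1r3e (ENSMUSG00000072494), another targeting subunit, was at 12.7, 12.2, 13.6 and 9.76 CPM in βIgf1r mice and at 11.6, 13.2, 12.1 and 12.2 CPM in βIgf1rKD mice. The groups overlapped throughout, with a log2 fold change of 0.02 and a 95% confidence interval from -0.23 to 0.28 (edgeR, adjusted p = 0.998). Ppp1r3d (ENSMUSG00000049999), a broadly expressed subunit, ranged from 5.197 to 6.78 CPM in βIgf1r and from 5.22 to 8.64 CPM in βIgf1rKD mice. Its log2 fold change of 0.10 had a 95% confidence interval from -0.31 to 0.50 (edgeR, adjusted p = 0.988), and the mouse at 8.64 CPM was M146.

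**Figure D1:**
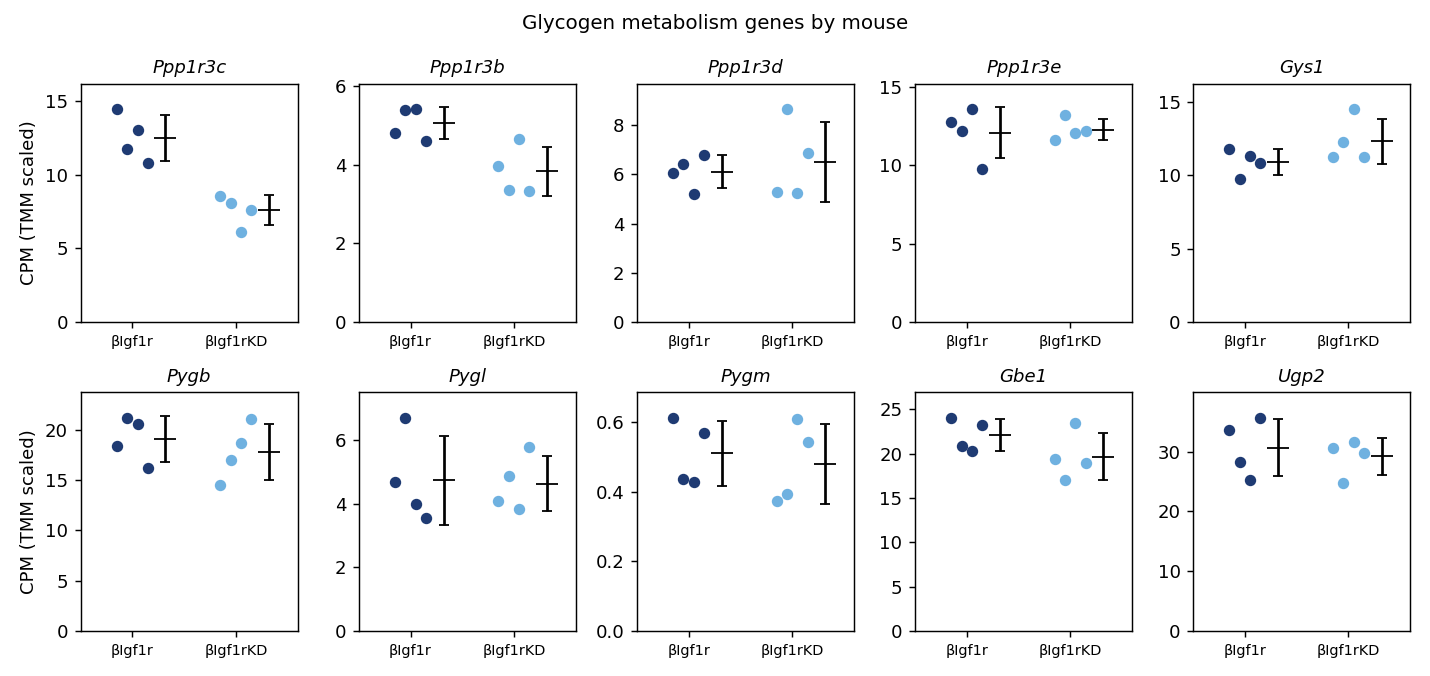
TMM-scaled CPM of the 10 genes in each mouse, with dark points for the 4 βIgf1r and light points for the 4 βIgf1rKD mice and bars for the mean ± SD. Ppp1r3c is the panel in which the groups do not overlap (10.8 to 14.4 against 6.14 to 8.52 CPM), while for Ppp1r3b 1 light point, M149 at 4.66 CPM, lies within the dark range.

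Per kb of merged exons, which allows genes to be compared, Ppp1r3c and Ppp1r3e were the most abundant of these subunits. Mean levels in βIgf1r islets were 4.81 CPM per kb for Ppp1r3e, 4.58 for Ppp1r3c, 1.87 for Ppp1r3d and 0.813 for Ppp1r3b. In βIgf1rKD islets they were 4.88, 2.78, 1.99 and 0.616 CPM per kb. Ppp1r3e was above Ppp1r3c in 2 of the 4 βIgf1r mice and in 4 of the 4 βIgf1rKD mice. The merged exons of Ppp1r3e measure 2508 bases and its longest transcript 1957, while Ppp1r3c has 2725 by both. By either length the mean of Ppp1r3e in βIgf1r islets was the higher, but the order of these genes in single βIgf1r mice depends on the length used. As a share of the summed level of these 4 subunits, Ppp1r3c made up 40.7%, 35.9%, 37.7% and 37.0% in βIgf1r mice and 31.2%, 26.0%, 23.9% and 27.2% in βIgf1rKD mice. The mean share was 37.9 ± 2.04% (SD, n = 4) and 27.1 ± 3.07% (SD, n = 4). The share of Ppp1r3e went from 39.7 ± 2.62% (SD, n = 4) to 47.6 ± 2.36% (SD, n = 4), although its own level was nearly the same in both groups, since shares of a sum move against each other. The difference in the Ppp1r3c share is a description, as it rests on the contrast by which Ppp1r3c was chosen.

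**Figure D2:**
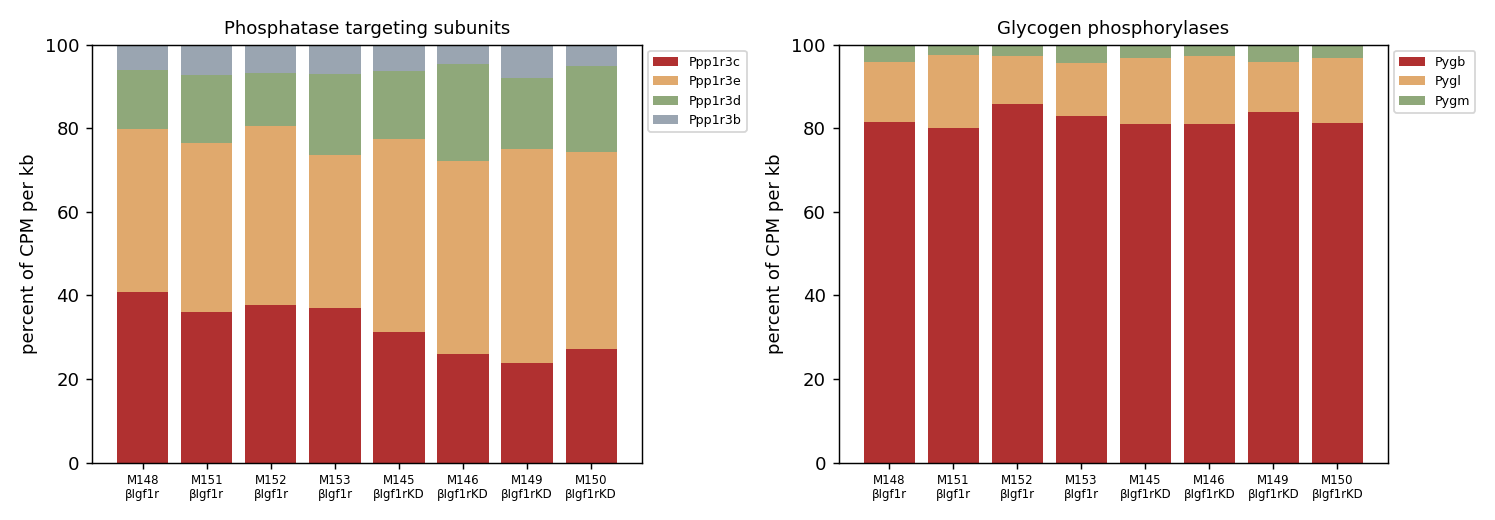
Stacked bars for each mouse of the percent of summed CPM per kb, for the 4 phosphatase targeting subunits on the left and the 3 glycogen phosphorylases on the right. The Ppp1r3c part is 35.9% to 40.7% in βIgf1r and 23.9% to 31.2% in βIgf1rKD mice, while the Pygb part is between 79.9% and 85.8% in all 8 mice.

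Among the enzymes that build glycogen, none passed the test. Gys1 (ENSMUSG00000003865), the synthase itself, was at 11.8, 9.71, 11.3 and 10.8 CPM in βIgf1r mice and at 11.2, 12.2, 14.5 and 11.3 CPM in βIgf1rKD mice. M149 had the highest level, and the groups overlapped. The log2 fold change of 0.17 had a 95% confidence interval from -0.08 to 0.43 (edgeR, adjusted p = 0.987), and it was 0.09 without M149. On the opposite strand Gys1 overlaps Ruvbl2, at a mean of 21.8 CPM, and whether the counting used strand is not given in the sources used here. Gbe1 (ENSMUSG00000022707), the branching enzyme, was at 24.0, 20.9, 20.3 and 23.3 CPM in βIgf1r and at 19.4, 17.03, 23.4 and 18.9 CPM in βIgf1rKD mice. All βIgf1rKD mice but M149 were below the βIgf1r mice, with a log2 fold change of -0.17 and a 95% confidence interval from -0.42 to 0.08 (edgeR, adjusted p = 0.987). Without M149 it was -0.26, at an unadjusted p of 0.0273 by edgeR's test, and with the endothelial score as a covariate it turned to 0.12. Ugp2 (ENSMUSG00000001891), which makes UDP-glucose, was the most abundant of the 10 genes, with 9.995 CPM per kb (SD 1.56, n = 4) in control and 9.51 CPM per kb (SD 0.994, n = 4) in knockdown islets. It ranged from 25.2 to 35.6 CPM in βIgf1r and from 24.7 to 31.6 CPM in βIgf1rKD mice, with a log2 fold change of -0.07 and a 95% confidence interval from -0.35 to 0.21.

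Set against each other within a library, Gbe1 and Gys1 separated the groups. The log2 ratio of Gbe1 to Gys1, per kb, was 0.87, 0.94, 0.68 and 0.95 in βIgf1r mice and 0.63, 0.32, 0.53 and 0.59 in βIgf1rKD mice. Each βIgf1rKD mouse lay below each βIgf1r mouse, M149 included. The means were 0.86 ± 0.12 (SD, n = 4) and 0.52 ± 0.14 (SD, n = 4), a difference of -0.35 on the log2 scale (exact two-sided permutation test over 70 assignments, p = 0.0286, the smallest p that 4 against 4 mice allow). Adjusted over the 3 tests of this kind, the p of this exact permutation test was 0.0857 and did not pass. Such a ratio needs no scaling between libraries. Among the enzymes followed, however, Gbe1 had the most negative and Gys1 the most positive log2 fold change. The genes were chosen with earlier results of these data known, which limits what this p can show. Leaving out single mice gave differences of -0.41 to -0.28, with exact permutation p-values between 0.0286 and 0.0571. The higher p was that without M145, M146, M149 or M150.

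**Figure D3:**
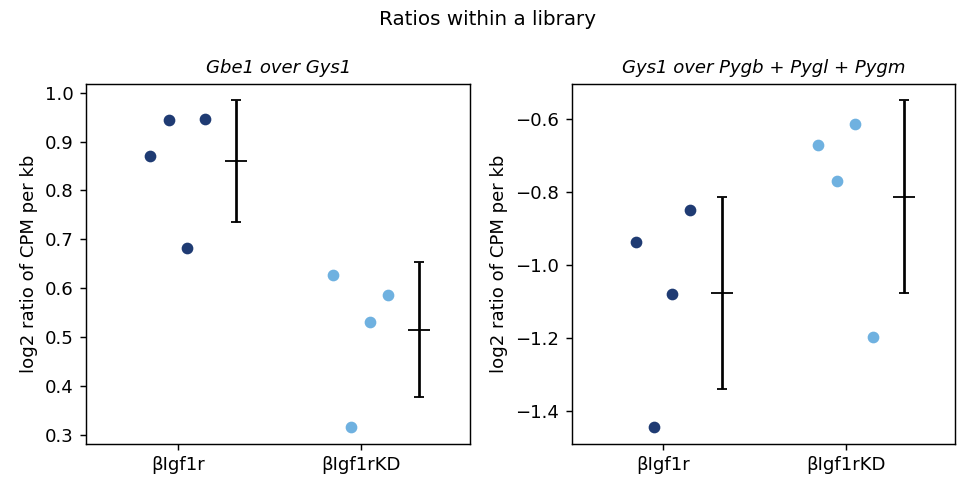
Log2 ratios of CPM per kb in each mouse, Gbe1 over Gys1 on the left and Gys1 over the 3 phosphorylases on the right, with bars for the mean ± SD. On the left the light βIgf1rKD points (0.32 to 0.63) are all below the dark βIgf1r points (0.68 to 0.95), and on the right the groups overlap.

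The phosphorylases, which break glycogen down, were alike in their makeup in both groups. Pygb (ENSMUSG00000033059), the brain form, was at 18.4, 21.2, 20.6 and 16.2 CPM in βIgf1r mice and at 14.5, 16.99, 18.7 and 21.1 CPM in βIgf1rKD mice, with a log2 fold change of -0.10 and a 95% confidence interval from -0.39 to 0.20. Pygl (ENSMUSG00000021069), the liver form, ranged from 3.56 to 6.69 CPM and from 3.83 to 5.77 CPM, with a log2 fold change of -0.03 (95% confidence interval from -0.53 to 0.47). Pygm (ENSMUSG00000032648), the muscle form, had only 8 to 23 counts per library, and its log2 fold change of -0.09 had the widest 95% confidence interval of the 10 genes, from -0.74 to 0.56. Some of its estimated counts were not whole, which was also so for Gys1, Ppp1r3b and Ppp1r3e, as happens where a read is divided between genes. Of the 4 muscle markers, the creatine kinase Ckm had means of 0.0426 and 0.0952 CPM in control and knockdown islets, skeletal actin Acta1 1.054 and 1.119 CPM, Des 3.803 and 3.276 CPM and the smooth muscle myosin Myh11 9.313 and 9.638 CPM. For Pygb, Pygl and Pygm the adjusted p of edgeR's test was 0.988, 0.9996 and 0.992.

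Of the summed phosphorylase level per kb, Pygb made up 82.5 ± 2.47% (SD, n = 4) in control and 81.9 ± 1.38% (SD, n = 4) in knockdown islets (p = 0.629, exact permutation test). Pygl made up 14.1 ± 2.62% and 14.9 ± 1.93%, and Pygm 3.38 ± 0.958% and 3.28 ± 0.560% (SD, n = 4 each). The log2 ratio of Gys1 to the sum of the phosphorylases averaged -1.08 (SD 0.26, n = 4) in control and -0.81 (SD 0.26, n = 4) in knockdown islets. Its difference of 0.26 was within the spread of the mice (p = 0.229 by the exact permutation test and 0.343 after adjustment over the 3 tests), with M150 at -1.20 among the lower βIgf1r values.

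**Figure D4:**
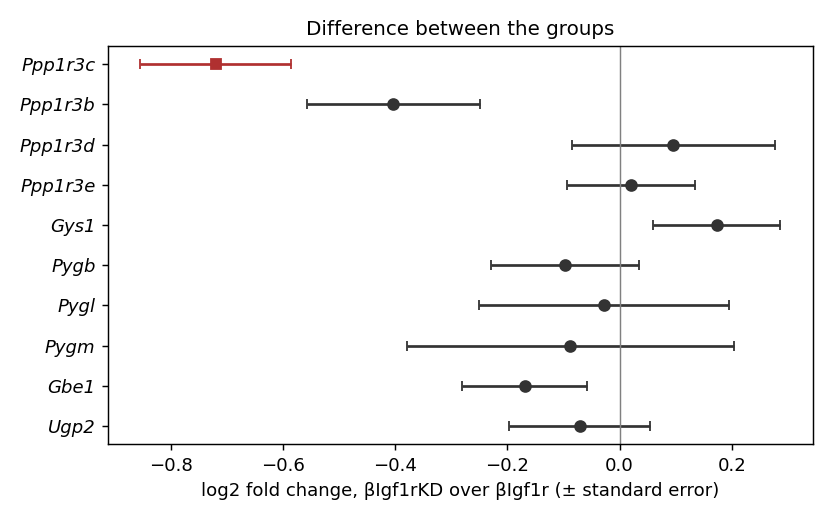
Log2 fold change of βIgf1rKD over βIgf1r for the 10 genes with its standard error, where the square is Ppp1r3c, which was chosen by this contrast. Ppp1r3c is at -0.72 and Ppp1r3b at -0.40, and the other 8 lie between -0.17 and 0.17.

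In the order of levels per kb in βIgf1r islets, from Ugp2 through Ppp1r3e, Ppp1r3c, Gbe1, Pygb, Gys1, Ppp1r3d, Ppp1r3b and Pygl to Pygm, not every step was beyond the spread of the mice. Ugp2 was above Ppp1r3e, Pygb above Gys1, Ppp1r3d above Ppp1r3b and Pygl above Pygm in 8 of 8 mice, and Gys1 was above Ppp1r3d in 7 of 8. Ppp1r3c, Gbe1 and Pygb were not separated from each other, since Ppp1r3c was above Gbe1 in 3 of 8 mice and Gbe1 above Pygb in 4 of 8. Ppp1r3c was above Gbe1 in 3 of 4 βIgf1r mice and in 0 of 4 βIgf1rKD mice, which restates the contrast by which Ppp1r3c was chosen. Ppp1r3b and Pygl could not be ordered, with Ppp1r3b higher in 5 of 8 mice. Their lengths are uncertain too, as the merged exons of Pygl measure 6895 bases and its longest transcript 3150. For Gbe1 these lengths are 5352 and 3734 bases, and for Ppp1r3e 2508 and 1957. The order of Gbe1 beside Ppp1r3c in βIgf1r mice thus depends on the length used as well, and that of Ppp1r3e does so in single mice. Leaving out Ppp1r3c, 6 of the 9 genes had a negative and 3 a positive log2 fold change, with a median log2 fold change of -0.07, beside 7388 negative, 8086 positive and a median of 0.01 over all genes tested.

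Beyond these 10, a list of 23 other genes of glycogen metabolism held 20 that could be tested, 10 with a negative and 10 with a positive log2 fold change, with a median log2 fold change of 0.01. The muscle targeting subunit Ppp1r3a, Ppp1r3g and the liver synthase Gys2 were not tested, with mean levels of 0.000 to 0.0611 CPM. Of the 20, Phka1 alone had an unadjusted p under 0.05 and was lower, beside 1.89% lower and 2.23% higher of all genes tested. It encodes the α1 regulatory subunit of phosphorylase kinase, the enzyme that activates phosphorylase. Phka1 was at 33.7, 32.6, 30.9 and 33.1 CPM in βIgf1r mice and at 28.3, 28.9, 25.1 and 29.7 CPM in βIgf1rKD mice, without overlap, as were 1.25% of all genes in this direction. Its log2 fold change was -0.22 (standard error 0.08), with an unadjusted p of 0.0176 and an adjusted p of 0.987 by edgeR's test, and the unadjusted call was lost with the acinar or the endothelial score as a covariate, where 0 of the 20 passed. Phkg1, a catalytic subunit gene of the same kinase, did not overlap either and was the higher in βIgf1rKD islets, at means of 0.572 and 0.769 CPM, as were 0.944% of all genes, but its log2 fold change of 0.42 had a standard error of 0.25 (edgeR, adjusted p = 0.987). The catalytic phosphatase subunits Ppp1ca, Ppp1cb and Ppp1cc, which the targeting subunits bring to glycogen, had log2 fold changes of -0.03, -0.10 and 0.04. Gyg, which encodes the protein primer of the chain, was at 0.04.

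Stbd1, a glycogen-binding protein that links glycogen to membranes, is named here because of its values. It was at 34.5 CPM in M149, from 793 counts, and between 0.9997 and 3.99 CPM in the other 7 mice. Its log2 fold change of 1.81 (standard error 0.98) turned to -0.52 without M149. Of the 6 neighbouring genes on chromosome 5, Scarb2, Shroom3, Sowahb and Cxcl10 in M149 were within the range of the other mice. Nup54, at 14.02 CPM against 10.18 to 12.82 CPM, and Sept11, at 41.83 CPM against 34.03 to 38.85 CPM, were slightly above it. In M149 13 genes were at least 5-fold above all other mice, and 0 to 7 were in each other mouse. Some markers of other cells were also highest in M149. Others were not, among them Acta2, at 5.79 CPM against 19.19 CPM in M150, Rgs5, Cspg4, Cd74 and all endothelial markers. The fibroblast collagens Col1a1 and Col3a1 were at 54.8 and 108 CPM, against at most 17.55 and 44.91 CPM in the other mice, and the macrophage marker Cd68 at 11.4 CPM against at most 5.549 CPM. Of the duct keratins, Krt19 was at 25.6 CPM against 1.32 to 5.29 CPM, whereas Krt7, at 139.5 CPM, was within the range of 129.9 to 193.8 CPM. The part of these cells in the Stbd1 value was not tested.

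**Figure D5:**
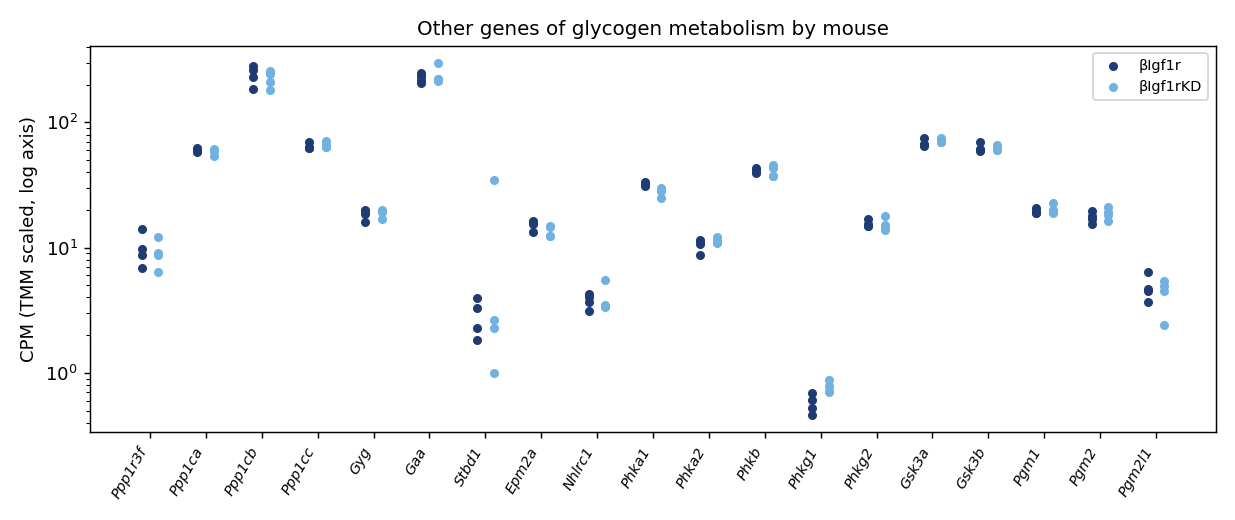
TMM-scaled CPM on a log axis of 19 of the 20 other tested genes of glycogen metabolism, with a dark point for each βIgf1r and a light point for each βIgf1rKD mouse. For most genes the points overlap, Phka1 is lower in all light points (25.1 to 29.7 against 30.9 to 33.7 CPM), and Stbd1 has a single light point, M149, at 34.5 CPM.

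The genes that supply or remove glucose 6-phosphate, the entry point of glycogen synthesis, were 5 lower and 5 higher of 10 tested, with a median log2 fold change of -0.01. The glucose transporter Slc2a2 and the phosphatase subunit G6pc2 had log2 fold changes of -0.13 and 0.12. The 1 gene of the 10 with an unadjusted p under 0.05, where 2.23% of all genes were higher, was Hk2, a low-Km hexokinase kept low in β-cells, averaging 0.974 CPM (SD 0.270, n = 4) in control and 1.57 CPM (SD 0.324, n = 4) in knockdown islets. Its log2 fold change was 0.69 (standard error 0.28, edgeR's adjusted p = 0.987), and the groups overlapped. As Ppp1r3c, Gys1 and Gbe1 are known to respond to low oxygen, a list of 25 hypoxia-responsive genes was examined. Of the 24 tested, 13 were lower and 11 higher, with a median log2 fold change of -0.02, and 0 had an unadjusted p under 0.05. Vegfa and Pdk1 had log2 fold changes of 0.03 and -0.15. For Car9, at 0.451 and 1.52 CPM, it was 1.71 (standard error 0.77), with M149 at 3.96 CPM and the other mice at 0.286 to 1.40 CPM.

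The genes most like Ppp1r3c over the 8 mice were Oas1c, 2810032G03Rik, Galnt15, Gsto2 and Gm16001. The measure was the root mean square difference in log2 CPM after each gene was centred on its own mean, and 13728 genes with a mean of at least 1 CPM were compared. The differences were 0.17 to 0.20, beside a spread of Ppp1r3c itself of 0.39 on the same scale. These genes were scarcer, at means of 1.19 to 3.13 CPM. This likeness includes the difference between the groups by which Ppp1r3c was chosen, and is a description. Among the 8 other glycogen genes above that minimum Ppp1r3b came nearest to Ppp1r3c, at 0.31 and rank 318, and Gbe1 followed at 0.38 and rank 2386. Around Ppp1r3c on chromosome 19, the 3 nearest tested genes on each side were Pcgf5, Hectd2 and Hectd2os, and Tnks2, Fgfbp3 and Btaf1. All 6 overlapped between the groups, with log2 fold changes from -0.73 for the antisense transcript Hectd2os, at 1.01 and 0.598 CPM, to 0.01 for Btaf1, and adjusted p-values of at least 0.987 by edgeR's test.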

How the data were processed

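Bulk RNA-seq of islets from 8 mice was used, grouped by their labels. The values deposited by the authors are estimated counts per gene, unscaled. Per the labels, the libraries were made with a stranded mRNA kit, and fastp, kallisto and GRCm38 are named in the submitters' processing notes. Their versions and the annotation release are not given in the sources used here. Estimated counts were rounded, and 51906 of 53012 identifiers were matched to symbols. Lengths and positions are those of GENCODE M21 on GRCm38.

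The filter of edgeR 4.0.16 (at least 10 counts after scaling to library size in at least 4 mice, total 15) kept 15474 genes. TMM factors and the quasi-likelihood test of edgeR were used in R 4.3.3, with p-values adjusted over all genes by the Benjamini-Hochberg method. Standard errors were derived from the F statistic. Log2 CPM used a prior count of 2. The ratio of Gbe1 to Gys1, that of Gys1 to the phosphorylases and the Pygb share were compared by exact permutation tests over mice. The other shares were described with no test. P-values set the difference between the groups against the variation between mice, which edgeR's test moderates across genes. Counts of 8 to 23, as for Pygm, leave a large counting error. Marker scores are the mean z-score of a list. The endothelial score did not overlap between the groups, so fits with it can hardly separate it from the group. The fit was tested on simulated data. The members and lists were chosen with earlier results of these data known. Named genes are the 10 members, the 5 genes most like Ppp1r3c, its 3 nearest tested genes on each side, Igf1r and 3 hormone genes. List genes with an unadjusted p under 0.05 (at most 4 a list) were named too, except endothelial, macrophage, fibroblast and pericyte markers. Other genes were named as background or because of their values. DESeq2 1.42.0, limma-voom with limma 3.58.1, RLE size factors, other filters, covariates (the level of Xist, for sex, and the acinar and endothelial scores) and leaving out each mouse were the alternatives. Plots were drawn with matplotlib 3.10.9. Some genes of the lists enter the counts and are not reported here by name.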

Additional observations from a re-analysis of the deposited data

Results flagged for a closer look

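In 4 of 68 sets of 4 mice, 1 mouse lay far from the other 3, and about 1 in 20 sets does so by chance, or 3.4 here. In βIgf1rKD mouse M149 the Pygb share of phosphorylase was 83.9%, against 81.1% to 81.4% in the rest of its group. M149 also had the highest Gsk3a of its group, with 6.24 in log2 CPM and the others 6.13 to 6.14. In βIgf1rKD mouse M146, Gaa, the lysosomal enzyme that degrades glycogen, reached 8.21 in log2 CPM, the others 7.74 to 7.79. The same mouse had the highest Nhlrc1, which encodes the ubiquitin ligase malin, with 2.48 in log2 CPM and the others 1.76 to 1.83. The causes were not tested.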

How the results depend on the processing

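The log2 fold change of Ppp1r3c kept its sign in 17 of 17 alternatives, between -0.80 and -0.63. The difference in its share of targeting subunits did so in 10 of 10, with -12.2 to -9.73 percentage points when a mouse was left out. As Ppp1r3c was chosen by this contrast and its groups did not overlap, these signs were largely fixed beforehand, and nothing is read from them. No paired analysis was made, because the sample labels used here give no pairs of mice. The number of genes at an unadjusted p under 0.05 was 637, and it became 1098 with no filter, 1144 with Xist as a covariate, 389 with the acinar and 380 with the endothelial score, and 383 to 1114 with a mouse left out, lowest without M148 and highest without M152. It was 402 without M153 and 960 without M146. At an adjusted p under 0.05 edgeR gave 0, DESeq2 8 and limma-voom 1. Of the 9 members tested, 0 to 2 passed unadjusted with a mouse left out, 0 without M151, M152, M146 or M150 and 2 without M149. Of the wider list, 1 gene passed, 2 with Xist, 0 with the acinar, the endothelial or the Xist and acinar scores, and 1 to 2 with a mouse left out, 2 without M146.

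Ppp1r3b, at -0.36, -0.53 and -0.43, had an unadjusted p over 0.05 with Xist, the endothelial score or Xist and the acinar score as covariates, and Gys1, at 0.27, 0.50 and 0.35, had one under 0.05 with the same covariates. Small log2 fold changes turned sign. With Xist, Ppp1r3d was -0.0031 and Pygm 0.0461. With the endothelial score, Ppp1r3e was -0.0126, Pygm 0.70, Gbe1 0.12 and Ugp2 0.24. With the acinar score Pygl was 0.16, and with limma-voom 0.0207. With Xist and the acinar score, a pair added after seeing the data, Pygm was 0.20 and Ugp2 0.0015. With a mouse left out, Ppp1r3d ranged from -0.0704 to 0.19, Ppp1r3e from -0.0709 to 0.0801, Pygl from -0.15 to 0.19, Pygm from -0.21 to 0.0185, Ugp2 from -0.16 to 0.0043 and Stbd1 from -0.52 to 2.18. The difference in the Pygb share ranged from -1.56 to 0.379 percentage points, and that in the ratio of Gbe1 to Gys1 from -0.41 to -0.28. The causes were not tested. Pygm has no value under a minimum of 10 counts in every mouse, which it did not meet.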
